A study of Mus musculus with 2 samples.

Results

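The barcodes richest in Spp1 and Slpi transcripts were examined in the library made 48 hours after partial hepatectomy (PHx48h), an operation that takes out part of the liver and sets off regrowth of the remainder. In this droplet assay a barcode marks a droplet, and a unique molecular identifier (UMI) marks 1 captured transcript molecule. For each barcode the Spp1 and Slpi UMIs were added and divided by its UMIs from genes outside the mitochondrial genome. The 60 barcodes with the highest share were taken from the 1586 of the library, with ties going to the barcode with more UMIs. The series holds 60788 barcodes in all. The question was whether these barcodes were biliary cells, injured hepatocytes or another class, against the other 1526 barcodes of the same library.

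Both libraries came from the livers of male C57BL/6 mice on a normal diet, given as 10 to 12 weeks old in the labels. Hepatocytes were released by collagenase perfusion and processed with 10X Genomics version 2 chemistry. The groups were undamaged liver (0 hours) and PHx48h, with 1 library each, and the study's methods assign 1 hepatocyte preparation per time point to this assay. No difference could therefore be set against variation between mice, and no test was made.

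Spp1 encodes osteopontin, a secreted phosphoprotein that binds integrins and CD44. In healthy liver it is known as a product of cholangiocytes, the epithelial cells of the bile ducts, and it is also made by macrophages and by hepatocytes under stress. Slpi encodes secretory leukocyte protease inhibitor, a small WAP domain protein that blocks neutrophil elastase and is made by many epithelia and by mesothelium, the cell layer on the surface of the liver. Spp1 (ENSMUSG00000029304) lies at chr5:104435118-104441050 on the plus strand, and Slpi (ENSMUSG00000017002) at chr2:164354070-164389095 on the minus strand (GRCm38).

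The 60 barcodes were not of a single kind. The values that chose them fell into 2 single barcodes and a long tail. The barcode with the highest share, called here the Spp1 barcode, held 703 Spp1 UMIs and 0 Slpi UMIs, or 3.71% of its non-mitochondrial UMIs. The next, called the Slpi barcode, held 90 Slpi UMIs and 0 Spp1 UMIs, or 1.55%. The third barcode held 7 Spp1 UMIs, a share of 0.208%. The last barcode inside the limit had 1 UMI of each gene (0.0388%), and the nearest outside it had 1 Spp1 UMI (0.0380%). The Spp1 barcode held 85.7% of all Spp1 UMIs of the 60, and the Slpi barcode held 50.3% of the Slpi UMIs. Among the further 58 barcodes, 14 were chosen by 1 UMI, 22 by 2 UMIs and 22 by 3 to 17 UMIs.

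**Figure D1:**
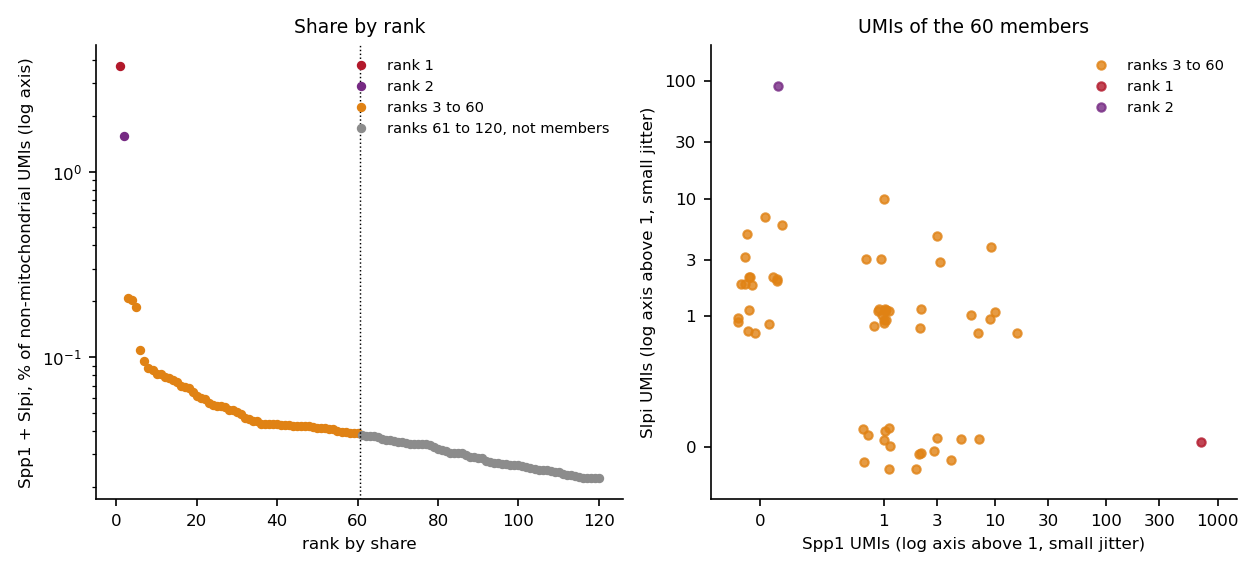
Share of Spp1 plus Slpi UMIs by rank for the first 120 barcodes (left, log axis) and the UMIs of both genes in each of the 60 members (right, log axes above 1, with jitter). The points of ranks 1 and 2 stand apart, at 703 Spp1 UMIs and at 90 Slpi UMIs, while the further 58 members hold at most 17 UMIs of the 2 genes together.

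The Spp1 barcode carried the biliary markers. It held UMIs of all 5 genes named in the question, with 27 of Epcam (chr17:87635979-87651129), an epithelial adhesion molecule, 18 of Krt19 and 10 of Krt7, keratins of the duct epithelium, 9 of the tight junction gene Cldn7, and 7 of Sox9, a transcription factor of biliary cells. Their summed level was 3743 counts per 1000000 non-mitochondrial UMIs (CPM; 95% interval 2924 to 4722), against 10.7 CPM in the other 1526 barcodes. Of 22 further biliary genes, 18 had UMIs in it. These included 29 of Tspan8, 23 of Bicc1, 16 of Prom1, 15 of Muc1 and 14 of Pkhd1, the last encoding a protein of the primary cilium. Tspan8 and Krt19 had 1 UMI each in all 1526 other barcodes together, and Epcam had 2.

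Its leading genes outside the marker lists included the cell surface gene Bcam (24 UMIs), the basement membrane gene Agrn (19 UMIs) and the trefoil peptide Tff2 (10 UMIs). Genes of the Notch pathway, which directs bile duct formation, were present with 18 UMIs of Hes1 and 9 of the ligand Jag1. The barcode also held UMIs of each of the 15 G2M genes, 108 in all (5694 CPM), with 19 of Cenpf and 14 each of Mki67 and Top2a. In the other barcodes the G2M list stood at 981 CPM. Macrophage, endothelial and stellate lists had 0 UMIs in it, and the neutrophil list had 1. The list of lipid-associated macrophage genes had 25 UMIs, or 1318 CPM (853 to 1946) against 227 CPM in the others, of which 16 were of the tetraspanin Cd9 and 0 of Trem2, Gpnmb and Mmp12. At 23085 UMIs, 5941 genes and 17.8% mitochondrial UMIs it was deeper than most barcodes of the library, whose median was 6838.5 UMIs. Alb, the main plasma protein of hepatocytes, had 107 UMIs in it, or 5641 CPM, and the 15 hepatocyte genes together stood at 17293 CPM against 119941 CPM in the other barcodes. Free RNA and a second cell in the droplet were not tested as sources of these hepatocyte transcripts.

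The Slpi barcode carried the mesothelial markers instead. Of the 12 mesothelial genes 11 had UMIs in it, 105 UMIs in all (18097 CPM, 95% interval 14802 to 21908), against 3.78 CPM in the other barcodes. Msln (chr17:25748613-25754378), the surface glycoprotein mesothelin, had 34 UMIs here and 0 in the other 1526 barcodes. The growth factor binding proteins Igfbp5 and Igfbp6 had 23 and 20 UMIs, the uroplakins Upk1b and Upk3b had 7 and 5, and Gpm6a had 7. Outside the list, 26 UMIs of S100a6, 12 of the protease inhibitor Timp1 and 6 of podoplanin (Pdpn) stood among its leading genes. Krt19 and Krt7 had 4 UMIs each, while Epcam, Cldn7 and Sox9 had 0.

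Matrix genes were also present in the Slpi barcode, with 13 UMIs of Col3a1 and 8 of Dcn, and the stellate and fibroblast list gave 31 UMIs from 5 of 12 genes. Lrat, Reln and Pdgfrb, genes of stellate cells, were at 0. The barcode had 6730 UMIs and 2331 genes, of which 13.8% of UMIs were mitochondrial. Alb had 80 UMIs in it. The 15 hepatocyte genes together gave 331 UMIs, or 57049 CPM against 119941 CPM in the other barcodes. Free RNA and a second cell in the droplet were not tested as their sources here either. Over 2000 variable genes the nearest barcode to the Spp1 barcode was the Slpi barcode, at a Pearson correlation of 0.30, while the nearest to the Slpi barcode was a different one, at 0.32. The median correlation of the further 58 members with their nearest barcode was also 0.30. This is a description over genes within 1 library. On the markers listed for each class, the Spp1 barcode was biliary-like and the Slpi barcode mesothelial-like, while none of the further 58 members held a mesothelial UMI or more than 1 of the 5 biliary genes.

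**Figure D2:**
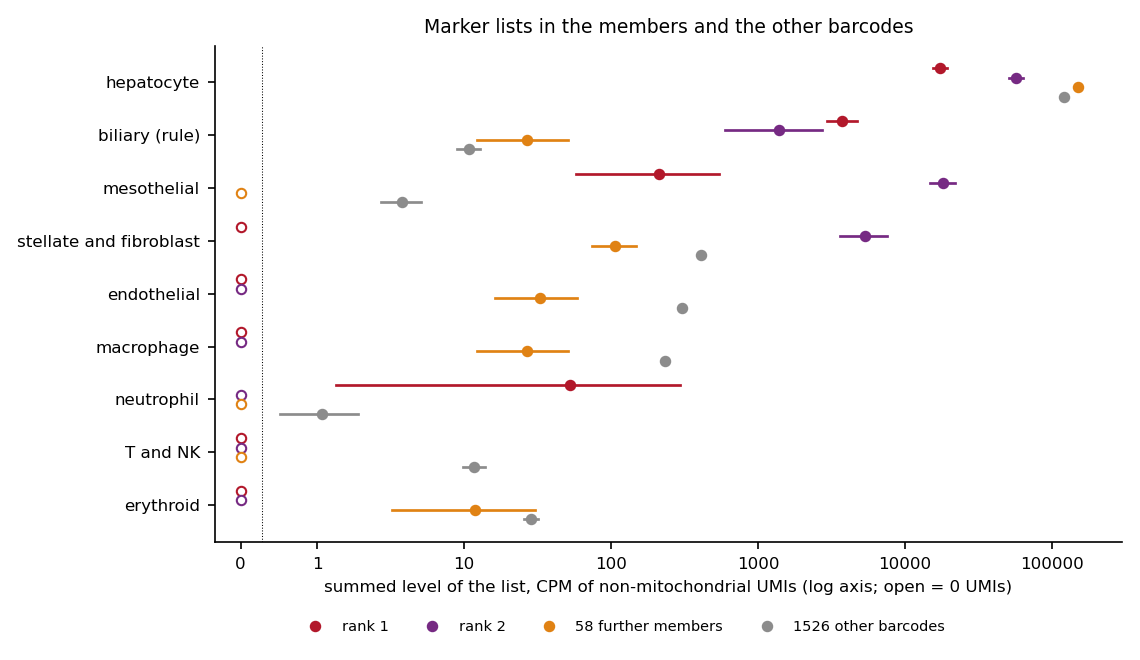
Summed levels of marker lists, in CPM of non-mitochondrial UMIs on a log axis, for the Spp1 barcode (rank 1), the Slpi barcode (rank 2), the further 58 members and the other 1526 barcodes. Points are pooled levels, bars are exact Poisson 95% intervals and open points mark 0 UMIs. The biliary list stands at 3743 CPM in rank 1, the mesothelial list at 18097 CPM in rank 2, and the 58 further members hold 0 mesothelial UMIs.

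The further 58 barcodes were led by hepatocyte transcripts. The hepatocyte list summed to 151056 CPM in them and to 119941 CPM in the other barcodes, and each of the 58 held between 167 and 4159 UMIs of it, with a median of 515. Alb stood at 51020 against 36603 CPM, 1.39 times as high (95% interval 1.37 to 1.42). Trf, which encodes transferrin, was 1.57 times as high, and Ttr, which encodes transthyretin, 0.91 times. None of the 15 hepatocyte genes reached 2-fold in either direction, beside 0.855% of all genes at the level limit that were 2-fold higher and 1.64% that were 2-fold lower in the 58. All intervals given here cover counting error only, not the spread between barcodes or mice.

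Of the 5 biliary markers only Sox9 was found in the 58. Epcam, Krt19, Krt7 and Cldn7 had 0 UMIs, and 9 Sox9 UMIs lay in 8 barcodes. The 4 genes at 0 were below the limit that a count of 0 allows, 8.87 CPM, in the other barcodes too. Sox9 stood at 26.6 CPM against 9.91 CPM, 2.69 times as high (95% interval 1.20 to 5.29). Among barcodes with over 30% mitochondrial UMIs the Sox9 ratio was 2.11 (0.81 to 4.60). With 2% or more it was 2.37 (0.99 to 4.86), so both intervals included 1. Members with 3 to 17 Spp1 and Slpi UMIs over 30% were also set against barcodes over 30% with 0 such UMIs. In the same depth range that ratio was 3.60 (1.20 to 9.03), an interval without 1. The 24 other barcodes with 3 to 17 such UMIs had 26.3 CPM of Sox9 (15.3 to 42.1). The part of the mitochondrial share in Sox9 was not tested. After thinning each barcode to 1000 non-mitochondrial UMIs, 3.45% of the 58 had a UMI of any of the 5 genes (95% interval 0.42% to 11.9%) and 0.591% of the others did (0.271% to 1.12%). The shares without thinning were 13.8% and 6.55%. No barcode among the 58 had 2 of the 5 genes, and 2 of the other 1526 did, each with Cldn7 and Sox9.

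Of the 22 further biliary genes, 8 had UMIs in the 58 barcodes, and all 8 were higher there by CPM than in the others, with a median log2 ratio of 0.41. Keeping only genes with a UMI in the 58 favours higher ratios there. Over all 22 the median was 0.00, with 1 gene 2-fold higher and 1 lower. Among all genes at the level limit 0.855% were 2-fold higher and 1.64% lower in the 58. The 14 with none were below the limit that a count of 0 allows in the others too. Clu, a secreted chaperone that hepatocytes also make, accounted for most of their UMIs, at 3744 CPM against 2496 CPM in the others (1.5 times, 95% interval 1.42 to 1.59). Atp1b1, a sodium pump subunit, was 2.28 times as high (1.62 to 3.13).

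Injury and stress genes summed to slightly more in the 58 than in the other barcodes, while their median ratio was near that of all genes. Of 28 such genes 0 reached 2-fold higher and 4 reached 2-fold lower, of which 1 met the level limit. Over all genes at that limit 0.855% were 2-fold higher and 1.64% 2-fold lower in the 58. The summed level of the 28 was 4392 against 3909 CPM (1.12 times, 95% interval 1.07 to 1.18). The median log2 ratio over the 28 was -0.10, or -0.07 over the 23 genes with UMIs in both sets, beside -0.08 over all genes that met the level limit. Lcn2, an iron-binding acute phase protein, was 1.24 times as high, and the hepatocyte keratins Krt8 and Krt18 were 1.3 and 1.34 times as high. The actin-binding gene Tmsb10 was 0.342 times as high (0.176 to 0.599), and Anxa2 0.384 times (0.14 to 0.842). Atf3, Ddit3, Trib3 and Chac1, genes of the integrated stress response, gave 4 UMIs in all. Gdf15, a stress cytokine, was 1.83 times as high (1.16 to 2.76). Among barcodes over 30% mitochondrial UMIs the summed level of the list was 1.20 times as high in the members (1.13 to 1.27). Members with 3 to 17 Spp1 and Slpi UMIs over 30% were also set against barcodes over 30% with 0 such UMIs. In the same depth range that ratio was 1.27 (1.19 to 1.36). The part of the mitochondrial share was not tested. Over all 60 barcodes the median of the list was 0.18, so its sign depended on the Spp1 and Slpi barcodes. The immediate early list gave 0 genes at 2-fold in either direction.

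Markers of the other classes were few in the 58. The mesothelial, neutrophil and T and NK lists had 0 UMIs in them, the B and plasma list had 1, and the erythroid list 4. The macrophage list had 9 UMIs (26.6 CPM) against 234 CPM in the others, with Clec4f, a Kupffer cell lectin, at 4 UMIs and Cd5l, Csf1r and C1qb among 8 of 12 genes at 0. The endothelial list had 11 UMIs (32.5 against 303 CPM), with Stab2 and Pecam1 at 0. The stellate list had 36 UMIs, 32 of them in the last barcode inside the limit, where Dcn alone gave 20. The 57 remaining held 4 stellate UMIs. These classes moved with the mitochondrial share. Among barcodes with over 30% mitochondrial UMIs the macrophage list stood at 19.6 CPM in the members against 29.5 CPM (0.663 times, 0.212 to 1.58) and the endothelial list at 35.2 against 76.3 CPM (0.461 times, 0.209 to 0.885). The list of lipid-associated macrophage genes had 64 UMIs in 32 of the 58 (189 against 227 CPM, 0.835 times, 0.641 to 1.07), mostly of Fabp5 and Cd9, which many cell types express. Trem2, Gpnmb and Mmp12 were at 0, and in the other barcodes they were also below the limit that a count of 0 allows.

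The 58 barcodes had more mitochondrial transcripts than the library around them. Their mitochondrial share ran from 0.255% to 84.7% with a median of 53.1%, against 21.9% in the others. In 42 of the 58 (72.4%) it was over 30%, compared with 47.4% of the others, and in 11 it was under 2%. Their median of 7506.5 UMIs was close to the 6819.5 of the others. The rule divides by non-mitochondrial UMIs, so a barcode with few of these needed fewer Spp1 or Slpi UMIs to enter. The 14 chosen by 1 UMI all had at least 55.1% mitochondrial UMIs and at most 2557 other UMIs. Of the 22 with 3 to 17 UMIs, 20 were over 30%, with a median of 8916 other UMIs. What the mitochondrial share contributes to the values above and below was examined only by setting barcodes of a like share side by side. Those splits were chosen after the data were seen.

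**Figure D3:**
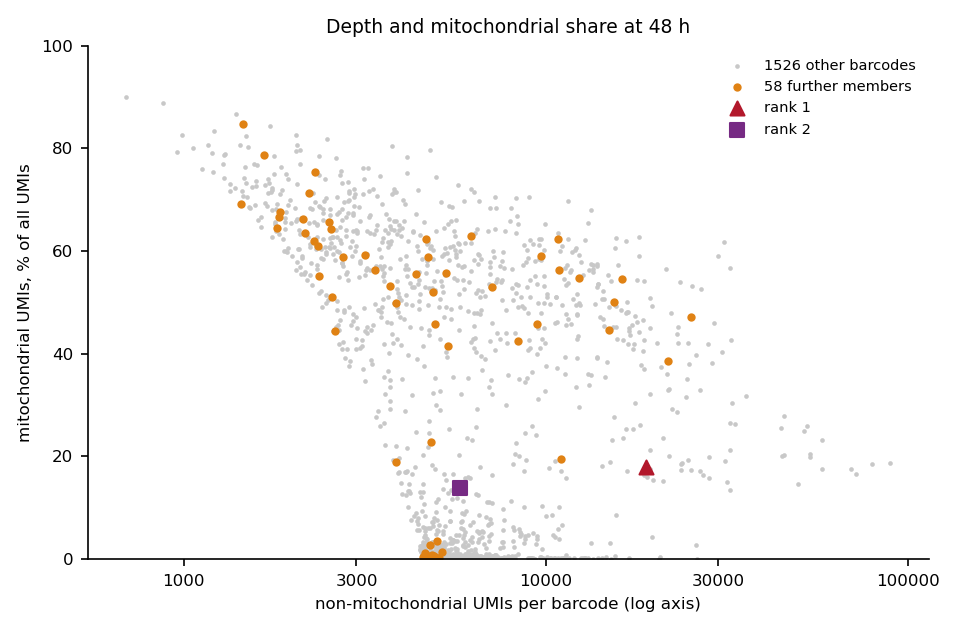
Mitochondrial UMIs as a percentage of all UMIs against non-mitochondrial UMIs per barcode (log axis) at 48 hours. Among the 58 further members 42 lie above 30% and 11 below 2%, while the Spp1 barcode (triangle) lies at 17.8% and the Slpi barcode (square) at 13.8%.

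The 58 pooled were less perivenous than the other barcodes, which rested mainly on the 22 with 3 to 17 Spp1 and Slpi UMIs. Hepatocytes differ along the lobule, with urea and amino acid metabolism toward the portal vein and glutamine synthesis and much of drug metabolism toward the central vein. Perivenous genes summed to 3182 CPM in the 58 against 5643 CPM in the others (0.56 times, 95% interval 0.53 to 0.60), and periportal genes to 10825 against 8410 CPM (1.29 times, 1.24 to 1.33). Of 15 perivenous genes 5 reached 2-fold lower and 0 higher, and of 14 periportal genes 2 reached 2-fold higher and 0 lower. At the level limit these were 4 perivenous and 2 periportal genes. Among all genes at that limit 1.64% were 2-fold lower and 0.855% 2-fold higher in the 58. The median log2 ratio was -0.89 for the perivenous list and 0.41 for the periportal list. Perivenous genes stood at 2175 CPM in the 22 members with 3 to 17 UMIs, at 4825 CPM in those with 2 UMIs and at 5213 CPM (4410 to 6121) in those with 1 UMI. In the 11 members under 2% mitochondrial UMIs they stood at 6157 CPM (5507 to 6863), against 5812 CPM in other barcodes under 2%, and periportal genes at 6875 (6187 to 7619) against 7090 CPM. Cyp2c29 was higher in these 11 members, at 1228 CPM (948 to 1565) against 859 CPM.

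Cyp2e1, a perivenous cytochrome P450, stood at 364 CPM in the 58 and 840 CPM in the others, and Cyp2c29 at 387 and 863 CPM. Glul, the glutamine synthetase of the innermost perivenous layer, was 0.486 times as high (0.31 to 0.725). Cyp27a1 went the other way at 1.22 times (0.899 to 1.62). On the periportal side, Aldh1b1 was 2.10 times as high (1.6 to 2.72) and Hsd17b13, a lipid droplet protein, 2.01 times (1.82 to 2.21). Hal and Gls2, which break down histidine and glutamine, were 1.96 and 1.95 times as high. Ass1 and Cps1 of the urea cycle were 1.02 and 1.14 times as high, and Arg1 was 0.91 times.

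Apart from the Spp1 and Slpi barcodes, the median zonal balance was most periportal in the barcodes with 3 to 17 Spp1 and Slpi UMIs. The Spp1 barcode held 20 periportal and 26 perivenous UMIs, and the Slpi barcode 11 and 24. The periportal part of all zonal UMIs had a median of 83.3% in the 22 members with 3 to 17 UMIs, running from 71.2% to 92.8%. In the 22 with 2 UMIs the median was 65.1% (44.9% to 84.9%), and in the 14 with 1 UMI it was 67.2% (32.0% to 87.5%). The other 1526 barcodes had a median of 57.1%, from 6.53% to 95.8%. The 24 barcodes outside the 60 that also held 3 to 17 UMIs were deeper, with a median of 17490 non-mitochondrial UMIs, and had a median of 85.4%. The lowest of the 22 members, at 71.2%, lay above the median of the other barcodes, although the ranges overlapped.

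The mitochondrial share moved with this balance, and its part in it was not tested beyond the sets below. Among other barcodes with over 30% mitochondrial UMIs the median periportal part was 70.8%, and in those under 2% it was 53.7%. The 11 members under 2% had a median of 50.9%. A closer set held 402 other barcodes with 0 Spp1 and Slpi UMIs, over 30% mitochondrial UMIs and the depth range of the 22 members. Their median was 66.5%, against 83.9% in the 20 members over 30%. The 402 were shallower, with a median of 5341 non-mitochondrial UMIs against 8916 in the 20. Since that set was chosen to hold 0 UMIs of both genes, the values describe the 2 ends of the range. Among all barcodes over 30%, perivenous genes in the members stood at 2637 CPM against 5060 CPM (0.52 times, 95% interval 0.48 to 0.56). Periportal genes there stood at 11963 against 9980 CPM (1.20 times, 1.16 to 1.24).

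**Figure D4:**
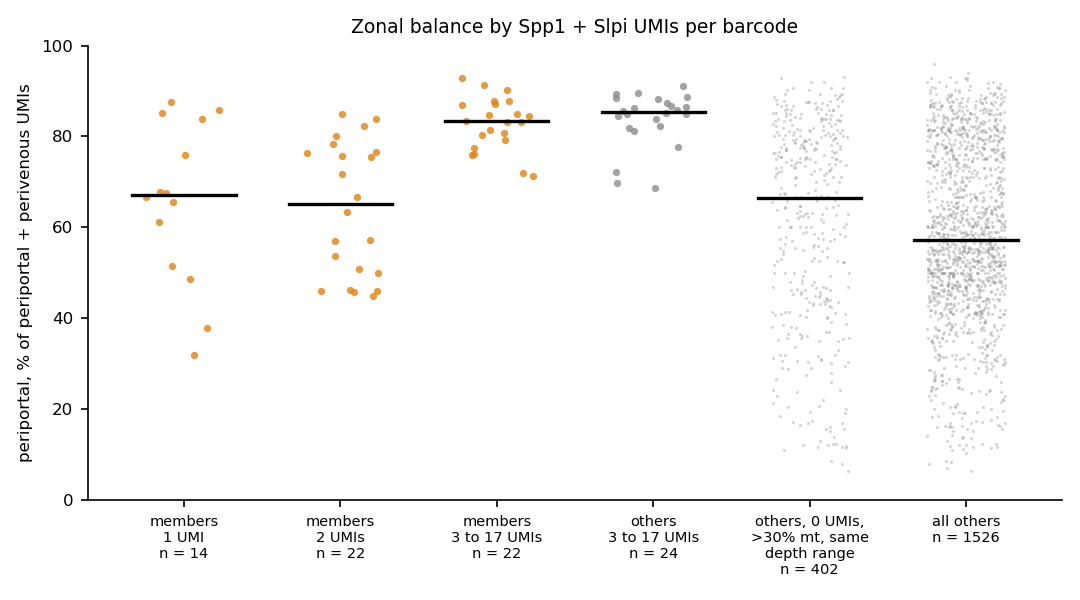
Periportal UMIs as a percentage of periportal plus perivenous UMIs per barcode, by the number of Spp1 plus Slpi UMIs. Points are barcodes and lines are medians. The 22 members with 3 to 17 UMIs have a median of 83.3% and the 24 other barcodes with as many UMIs 85.4%, compared with 66.5% in the 402 barcodes without such UMIs at a like depth and mitochondrial share and 57.1% in all others.

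Barcodes taken by either gene alone also had lower perivenous and higher periportal levels than the rest. To read one gene in barcodes it did not choose, 60 barcodes were taken by the Spp1 share alone. The Spp1 barcode was left out of them, and the Slpi barcode out of the rest. Slpi stood at 64.4 CPM in these 59 against 26.3 CPM in the rest, 2.45 times as high (95% interval 1.51 to 3.78). Their perivenous genes were 0.55 times and their periportal genes 1.42 times as high as in the rest. For the 59 taken by the Slpi share alone, the Slpi barcode was left out, and the Spp1 barcode was left out of the rest. Spp1 stood at 61.6 CPM in these 59 against 24.8 CPM, 2.49 times as high (1.6 to 3.72). Perivenous genes there were 0.55 times and periportal genes 1.22 times as high. With both barcodes kept, Slpi was 1.77 times as high in the Spp1 set (1.10 to 2.72). Spp1 was then 0.69 times as high in the Slpi set (0.45 to 1.01). Its direction there rested on leaving out the Spp1 barcode. The periportal intervals of the Spp1 set (1.37 to 1.46) and the Slpi set (1.18 to 1.26) did not overlap. Sox9 was 3.98 times as high in the barcodes taken by Spp1 (2.05 to 7.11), whereas in those taken by Slpi the interval ran from 0.79 to 3.84. Of these sets 28 and 29 barcodes were among the 60 members. The median mitochondrial share was 55.5% in the first set and 45.1% in the second, and its part in these ratios was not tested.

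Gene by gene, 58 of 2739 genes (2.12%) were 2-fold or more higher in the 60 barcodes than in the others, counted with 5 CPM added to each level, and 34 (1.24%) were 2-fold or more lower. A gene needed 50 CPM in either set, and 48 of the 58 higher genes reached that level only in the members, as 25 of the 34 lower genes did only in the others. With a limit of 10 CPM over all barcodes pooled, 98 genes were higher and 264 lower, so the balance of the counts depended on this limit. The 58 higher genes mixed the different kinds of barcode. In 18 of them the Spp1 or the Slpi barcode held over 50% of the UMIs, and 15 remained at 2-fold when both were left out. Of the 34 lower genes 27 remained. Without the Spp1 and Slpi barcodes 23 genes were higher and 44 lower among 2691.

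The genes named next had UMIs in at least 15 of the 60 barcodes, with no barcode holding over 50% of them. Cdh1, which encodes E-cadherin of the adherens junction, led the 25 highest. It stood at 207 CPM in the 58 barcodes against 79.3 CPM in the others, 2.61 times as high (95% interval 2.02 to 3.33). At 1000 UMIs per barcode, 24.1% of the 58 (13.9% to 37.2%) and 7.36% of the others (6.10% to 8.79%) had a Cdh1 UMI. Among barcodes with over 30% mitochondrial UMIs the ratio was 1.98 (1.5 to 2.56).

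Mfge8 (chr7:79133768-79149060), a secreted protein that binds phosphatidylserine and integrins, stood at 112 CPM in the 58 against 34.3 CPM (3.28 times, 2.28 to 4.58). In the 22 barcodes with 3 to 17 Spp1 and Slpi UMIs it ran from 0 to 6 UMIs with a median of 1, and 7 had none. Among barcodes with over 30% mitochondrial UMIs it was 3.53 times as high (2.41 to 5.03). The 20 members over 30% had 162 CPM, against 29.5 CPM in the 402 barcodes without Spp1 and Slpi. Those 402 shared the mitochondrial limit and the depth range, but were shallower at the median. The 24 other barcodes with 3 to 17 Spp1 and Slpi UMIs, which were deeper, did not share the level of the 20 members. Mfge8 stood at 47.97 CPM in them (32.59 to 68.09), so its high level did not go with Spp1 and Slpi UMIs in general. In the undamaged library Mfge8 stood at 2.82 CPM.

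Hsd17b6 (chr10:127990936-128007611), a hydroxysteroid dehydrogenase, had 0 UMIs in the Spp1 and Slpi barcodes and 228 CPM in the 58, against 73.2 CPM in the others (3.11 times, 2.43 to 3.93). Among the 22 barcodes it ran from 0 to 24 UMIs with a median of 2. Above 30% mitochondrial UMIs it was 3.15 times as high (2.39 to 4.08). Slc3a1, a subunit of a cystine and basic amino acid transporter, was 2.63 times as high (1.68 to 3.96) in the 58. The vitamin A receptor gene Stra6l and the membrane protease Mmp15 were 2.28 and 2.21 times as high. The kinase gene Mark3, the noncoding Gm26917, the phosphatidylserine decarboxylase PISD and the zinc transporter Slc39a9 also stayed above 2-fold in the 58, as did Atp1b1, which made 11 of the 25. Above 30% mitochondrial UMIs, Slc3a1, Gm26917 and Atp1b1 were 1.82, 1.64 and 1.87 times as high, under 2-fold.

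The other 14 were under 2-fold once the Spp1 and Slpi barcodes were left out. Onecut2, a transcription factor of liver and bile duct, had 37 of its 77 UMIs in the Spp1 barcode, and its ratio went from 2.08 to 1.16 (0.82 to 1.59). The ratio of Ahnak, a large membrane scaffold, went from 3.09 to 1.41 (0.85 to 2.20). Cgn, the tight junction protein cingulin, went from 2.67 to 1.95, and Dag1, the matrix receptor dystroglycan, from 2.31 to 1.58. The adhesion gene Alcam went from 2.04 to 1.72 and Plxnb1, a semaphorin receptor, from 2.10 to 1.83. Nceh1, Pik3c2a, Glg1, Nsd1, Ptprk, Cyp39a1 and Msl1 lay between 1.87 and 2.06 times by CPM in the 58, and all were under 2-fold with the 5 CPM added for calls.

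Of the 10 lowest genes 6 were in the perivenous list, namely Cyp2e1, Cyp2c29, Cyp2c50, Rgn, Gulo and Oat. Cyp2a5, also a perivenous P450 by background knowledge, stood at 278 CPM in the 58 against 614 CPM (0.453 times, 0.365 to 0.555). Cyp7a1, the rate-limiting enzyme of bile acid synthesis, was 0.509 times as high (0.335 to 0.744). Usp50 and Anxa7 completed the 10, at 0.53 and 0.50 times. In all 60 barcodes the 10 ratios lay between 0.43 and 0.52.

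**Figure D5:**
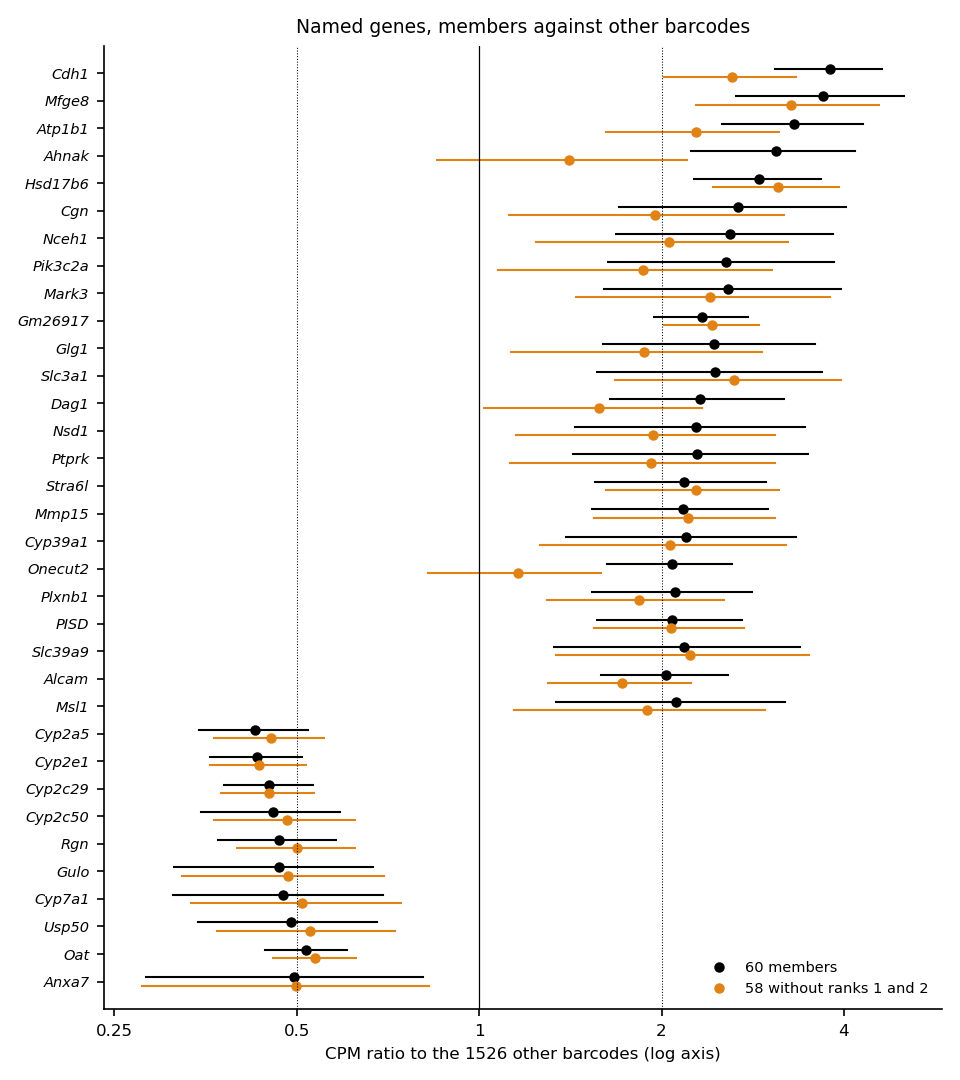
Ratios of CPM to the other 1526 barcodes (log axis) for 24 of the 25 highest and all 10 lowest named genes, in all 60 members (black) and in the 58 without the Spp1 and Slpi barcodes (orange), with 95% counting intervals. Dotted lines mark 2-fold. Onecut2 and Ahnak move to intervals that include 1, while Mfge8, Hsd17b6 and Cdh1 stay above 2-fold.

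Mitotic genes were lower in the 58 pooled, and most clearly in the members with 3 to 17 Spp1 and Slpi UMIs. The G2M list summed to 592 CPM against 981 CPM (0.60 times, 95% interval 0.52 to 0.69), and 13 of its 15 genes lay below the others, 1 of them by 2-fold. Top2a stood at 26.6 against 66.3 CPM and Mki67 at 35.5 against 68.2 CPM. Among barcodes over 30% mitochondrial UMIs the list was 0.55 times as high (0.45 to 0.66). Under 2% the members stood at 1398 CPM (1097 to 1755) against 1106 CPM, so the interval included the level of the others. The last barcode inside the limit, with 32 stellate UMIs, held 24 of the 74 G2M UMIs behind that 1398 CPM. It also held 24 of the 99 G2M UMIs of the 22 members with 2 UMIs. The list stood at 1034 CPM in those 22 and at 384 CPM in the members with 3 to 17. The 24 other barcodes with 3 to 17 Spp1 and Slpi UMIs did not share this level, at 986 CPM. The S phase list was 432 against 486 CPM (0.89 times, 0.75 to 1.05), and 0 of its 14 genes reached 2-fold.

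Several neighbouring groups stayed near the level of the other barcodes. The acute phase list was 1.07 times as high in the 58 (1.05 to 1.09), with Hp at 1.47 times and Saa2 at 0.77 times, and 0 of its 14 genes reached 2-fold. Bile acid and transport genes were 1.07 times as high (0.98 to 1.16), and 0 reached 2-fold. Of the 4 relatives of Spp1, Ibsp, Dmp1, Mepe and Dspp, all were at 0 UMIs in both sets. Among WAP domain genes, Wfdc21 stood at 2561 against 3039 CPM, and Wfdc17 at 5.92 against 52.4 CPM (0.113 times, 0.0136 to 0.409). Osteopontin receptors gave 216 against 237 CPM, with Itgb1, an integrin beta chain, at 91.7 against 117 CPM and Cd44 at 0 UMIs. Progenitor and fetal genes gave 112 against 126 CPM, with Afp at 1 UMI and Dlk1, H19 and Igf2 at 0.

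The 60 members were seldom each other's nearest barcodes. For each barcode the 15 nearest were found by correlation over 2000 variable genes, without mitochondrial genes, Spp1 and Slpi. On average 4.44% of the nearest barcodes of a member were members, against 2.73% for the other barcodes and 3.72% of the barcodes in all. None of the 60 had a majority of members among its nearest, 29 had none, and the highest count was 4 of 15.

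The same rule was applied to the undamaged library for comparison, where the barcodes were far shallower, with a median of 1436 UMIs. Slpi had 28 UMIs in its 59202 barcodes (0.311 CPM) and Spp1 had 1447 (16.1 CPM). Without the Spp1 and Slpi barcodes, the PHx48h library stood at 27.4 CPM of Slpi (24.5 to 30.7) and 26.1 CPM of Spp1 (23.3 to 29.3). Both genes lay in the same barcode in 24 of the 60 at 48 hours and in 1 of the 60 in undamaged liver, where 38 were chosen by 1 or 2 UMIs. Each value is of 1 library.

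Biliary and mesothelial transcripts also stood at the top of the undamaged ranking. Its first barcode had 26 Spp1 UMIs, with 2 of Epcam and 1 of Cldn7, and its second had 8 Slpi UMIs, with 5 of Igfbp6 and 1 of Upk3b. A barcode at rank 51 held 7 Spp1 UMIs, 2 of Epcam and 1 of Sox9. Slpi was also found there in 3 barcodes with 34, 51 and 83 UMIs of neutrophil genes, a kind not seen among the 60 at 48 hours, where 1 neutrophil UMI was counted. Of the barcode sequences at 48 hours 148 (9.33%) were also in the undamaged list, 4 of them among the 60.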

How the data were processed

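Single-cell RNA-Seq of hepatocytes from undamaged liver and from liver at PHx48h gave 2 libraries, assigned by the time point in their labels. The authors deposited raw UMI counts per gene and barcode (27998 genes). The submitters' processing notes name Cell Ranger and mm10. The version and annotation are not given in the sources used here, and the study's filters on mitochondrial content and doublets are named without thresholds. All deposited barcodes entered, and no doublets were removed. The 13 mitochondrial genes were left out of all levels.

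The members and gene lists were chosen with earlier results of these data known. Counts were summed per set and given as CPM of non-mitochondrial UMIs. The PHx48h library held 18198719 UMIs, 11465347 of them non-mitochondrial, and the undamaged library 96118593. Genes at 50 CPM or more in either set, without Spp1 and Slpi, were called at 2-fold with 5 CPM added. Log2 ratios use the added level, and ratios given as times do not. Named genes were the 25 highest and 10 lowest with UMIs in at least 15 members and no member holding over 50% of the UMIs, and every gene of 27 lists (329 of 331 genes found). Values of some of these genes are not reported here. Intervals are exact Poisson for CPM, exact binomial for shares and conditional binomial for ratios, at 95%. A count of 0 was read as under 3 counts. They cover counting error only. With 1 library per group no p-value was computed. The code for the calls was run on simulated Poisson counts with no spread between barcodes and with changes larger than 2-fold. This checks the code and does not measure how the calls behave in these barcodes. Coordinates came from GENCODE M21 (GRCm38), where 15 of 15 genes looked up matched. Python 3.11.15, numpy 2.4.6, scipy 1.17.1, pandas 2.3.3 and edgeR 4.0.16 (for TMM factors only) were used.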

Additional observations from a re-analysis of the deposited data

How the results depend on the processing

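The direction of each of the 25 highest and 10 lowest genes held under the alternatives run, with 0 changes of sign in 560 comparisons over 16 alternatives, of which 437 stayed within the counting interval. The genes were picked by these same ratios and the alternatives reused the same counts, so a kept sign was likely from the start. Counts of genes and pooled biliary levels did depend on the processing. The 58 higher genes became 115 without the 20 most abundant genes, 98 with a limit of 10 CPM over all barcodes pooled, 523 with no limit, 270 with 30 barcodes, 22 with 100 barcodes and 35 with the share taken over all UMIs. They were 594 against other barcodes under 2% mitochondrial UMIs and 34 against those at 2% or more. The 34 lower genes became 55 with TMM factors, 264 at the pooled limit, 455 with no limit, 53 with the mean of single-barcode CPM, 132 with 30 barcodes, 17 with the share of all UMIs and 233 against barcodes under 2%. The biliary sum of 243 CPM became 326 without the abundant genes, 104 as a mean of single barcodes, 454 with 30 barcodes and 147 with 100. The share with a biliary UMI was 6.67% at 1000 UMIs and 16.7% with no thinning. Of the list medians, perivenous went from -0.87 to -0.45 in barcodes with at most 30% mitochondrial UMIs, and against barcodes under 2% hepatocyte went from 0.16 to 0.77, injury from 0.18 to 0.40 and periportal from 0.33 to 0.87. The cause of these moves was not tested.

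3 alternatives were chosen after seeing the data. Without the Spp1 and Slpi barcodes 23 genes were higher and the biliary sum was 26.6 CPM. With both sets also at 2% mitochondrial UMIs or more, 17 were higher, 95 lower, the sum 28.1 CPM and the perivenous median -1.16. With members of at least 3 Spp1 and Slpi UMIs, 192 were lower, the sum 32.8 CPM, the perivenous median -1.68 and the hepatocyte median 0.36. In these 3 alternatives the medians of the biliary genes of the question (3.07 in all 60) were -0.0511, -0.0702 and -0.0511, those of the further biliary genes (1.61) were 0.00, and the mesothelial ones (1.79) were -0.0129, -0.0178 and -0.0129, since these alternatives leave out the barcodes that carried those transcripts. No paired analysis was possible because each group had 1 library. That also means that no difference could be set against variation between mice, and a level below 3 UMIs in the 58 barcodes (8.87 CPM) could not be told from 0.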
